A study of Rattus norvegicus and Mus musculus with 18 samples.

Results

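Axon guidance genes encode secreted or membrane-bound cues and the receptors that read them, and 70 such genes were measured in the embryonic kidney. They were chosen by name from the probe sets annotated to a single gene symbol, as the semaphorins of classes 3 to 7, plexins, neuropilins, Slits, Robos, ephrins, Eph receptors, netrins and netrin receptors, out of 19342 genes on any array. The mouse array carried 69 of them among 18193 genes, 34 ligands, 34 receptors and Plxna4os1, an antisense transcript of a plexin locus that the naming rule takes in. The 3 rat arrays carried 22, 15 and 18, together 45 different genes, of which 44 were also on the mouse array and Ephb2 was on the rat arrays only.

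The metanephric kidney forms when the ureteric bud, an epithelial tube, grows into the metanephric mesenchyme and branches. Mouse kidneys of embryonic stage E12.5 had been dissected into bud tips, bud stalks and mesenchyme, from about 1000, 350 and 300 pieces, and rat kidneys of stage E13.5 into whole buds and mesenchyme, from about 1200 and 240 pieces. No genotype or strain was stated, and no tissue had been treated other than by the 10 min enzyme digestion used to separate it. Every tissue was hybridised to each Affymetrix array design on 2 arrays, which gave 6 mouse arrays and 12 rat arrays over 3 rat designs, called here first, B and C. The 2 arrays of a tissue came from separate labelings of the same pool of RNA, so that p-values reflect labelling and hybridisation noise and say nothing of variation between animals.

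Slits are secreted ligands of Robo receptors, and loss of Slit2 or Robo2 lets extra ureteric buds form in the mouse. Class 3 semaphorins are secreted, and most bind neuropilins, which signal through plexins, while most semaphorins of the other classes bind plexins directly. Netrin-1 binds Dcc, neogenin and the Unc5 receptors, and ephrins are tethered to the cell surface, so that ephrin and Eph receptor meet only between touching cells.

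Rat promoter sequences were taken for 4 ligands named in the tissue comparisons below. Of these, 3 had a higher signal in the mouse bud (Efnb2, Sema3c, Sema3d), and Efnb1 had a higher signal in the rat mesenchyme. Efnb2 and Sema3d were not among the genes of the rat arrays. Only rat promoters were at hand, with none for Slit2, Ntn1, Sema5a, Sema4d or Unc5c. Each runs from 250 bases before to 50 bases after the annotated start, from RefSeq in the rat build GRCr8, printed 5′ to 3′ along the gene. Capitals mark each match, on either strand, to the E-box letters CAGGTG or to the CCAAT box, and no 2 of these matches overlap.
Efnb2, chr16:87484965-87485264, + strand: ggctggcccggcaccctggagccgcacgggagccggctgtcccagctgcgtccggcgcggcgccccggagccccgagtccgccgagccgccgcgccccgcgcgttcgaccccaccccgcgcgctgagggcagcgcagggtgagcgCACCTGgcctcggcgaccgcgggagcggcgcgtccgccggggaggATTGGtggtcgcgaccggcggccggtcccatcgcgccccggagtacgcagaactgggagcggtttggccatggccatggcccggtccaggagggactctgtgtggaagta
Sema3c, chr4:18699578-18699877, - strand: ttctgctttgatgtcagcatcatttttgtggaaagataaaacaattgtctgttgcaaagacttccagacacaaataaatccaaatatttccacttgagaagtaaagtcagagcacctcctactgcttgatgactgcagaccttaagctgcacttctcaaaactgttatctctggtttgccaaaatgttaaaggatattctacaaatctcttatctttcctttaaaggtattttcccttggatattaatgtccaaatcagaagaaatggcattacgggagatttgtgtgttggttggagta
Sema3d, chr4:23460922-23461221, - strand: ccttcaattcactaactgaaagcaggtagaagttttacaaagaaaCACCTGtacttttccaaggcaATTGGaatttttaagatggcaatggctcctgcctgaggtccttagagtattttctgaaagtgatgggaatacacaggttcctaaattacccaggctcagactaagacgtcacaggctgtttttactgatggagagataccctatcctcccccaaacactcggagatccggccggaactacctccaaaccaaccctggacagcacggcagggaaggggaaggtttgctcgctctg
Efnb1, chrX:68297279-68297578, + strand: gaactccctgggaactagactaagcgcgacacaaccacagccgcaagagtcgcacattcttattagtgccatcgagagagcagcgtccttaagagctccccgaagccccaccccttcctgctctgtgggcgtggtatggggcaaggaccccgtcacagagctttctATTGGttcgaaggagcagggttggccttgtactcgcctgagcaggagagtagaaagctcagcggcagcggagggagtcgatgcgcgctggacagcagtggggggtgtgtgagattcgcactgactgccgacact

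The 4 promoters differed in base composition. Efnb2 had 77.3% G and C and 45 CpG dinucleotides, and Efnb1 had 59.0% and 18. Sema3c had 36.3% and 1, and Sema3d had 47.3% and 6, against medians of 51.7% and 7 over the 33469 promoters of the table. The CAGGTG letters lay once in Efnb2 and once in Sema3d and in 18.8% of all promoters. The CCAAT letters lay once each in Efnb2, Sema3d and Efnb1 and in 37.5% of all. The Ets core letters CCGGAA, in 15.0% of all promoters, lay once in Sema3d, and neither the GC box GGGCGG (33.1% of all) nor the TATA letters TATAAA (14.2%) lay in any of the 4. The table held 55 promoters of 54 of the 70 genes, with a median of 63.7% G and C. Of these 55, 30 held the GC box, 20 the CCAAT letters, 9 the CAGGTG letters, 4 the Ets core letters and 0 the TATA letters. Such matches describe letters in a window and were not tested against the expression values.

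Intensities were quantile normalised, and differences were tested with limma on log2(intensity + 16), on which changes of weak genes come out too small. Called genes are those with a Benjamini-Hochberg adjusted p below 0.05 together with a difference of 2-fold or more. Genes entered the test where some tissue's mean was no lower than the median intensity of the table, 49.3 in mouse and 111 to 118 in rat. Of the 69 mouse genes 59 passed, and Sema3g and Sema6b passed only through their brightest tissue. The 10 that did not pass (Epha5, Epha6, Epha8, Ntn3, Ntn4, Plxna4os1, Robo2, Robo3, Sema3e and Unc5d) had array values between 10.4 and 41.3. In rat, 9 of 22, 10 of 15 and 12 of 18 passed, in the order of the designs. All levels below are normalised intensities, compared only within a gene.

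Tissue markers differed between all 3 mouse tissues, and the stalk samples carried bud and stromal markers together. The summed intensity of 10 bud epithelium markers ranged over 27162 to 27613 in tips, 15273 to 15581 in stalks and 718 to 776 in mesenchyme. The sum of 7 markers of stroma and ureteric mesenchyme was 1611 to 1852 in tips, 15219 to 15324 in stalks and 12319 to 12582 in mesenchyme, so it was higher in stalks than in the mesenchyme samples themselves, and 7 of 7 were called lower in tips than in stalks. The 8 nephron progenitor markers summed to 765 to 869 in tips, 2436 to 2437 in stalks and 6632 to 6657 in mesenchyme, with 7 of 8 called lower in tips and 5 of 8 lower in stalks than in mesenchyme. The 10 endothelial markers summed to 1088 to 1207 in tips, 2040 to 2128 in stalks and 3095 to 3128 in mesenchyme, with 4 of 10 called lower in tips than in stalks and 8 of 10 lower in tips than in mesenchyme. Neuronal and neural crest markers (7 of 9 on the array) summed to 377 to 398, 587 to 598 and 1032 to 1157, and no marker of these lists was at 0. Because these are bulk samples, fewer cells of a type and less RNA per cell cannot be told apart. In rat, the second bud labeling on each design had a Gapdh 3′ to 5′ signal ratio of 4.43, 5.28 and 4.26, against 1.25 to 1.47 on the other rat arrays and 0.903 to 1.01 in mouse, so rat results are also given without it.

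Mouse guidance genes, like all mouse genes tested, were called most often between bud tips and mesenchyme. There 16 of the 59 tested mouse genes were called, 7 higher and 9 lower in tips, and over all 12368 genes tested 9.7% were called, 4.65% higher and 5.05% lower. Ligands made up most of the genes that were higher in tips (Efnb2, Sema4d, Sema3c, Slit2, Sema5a and Sema3d, beside the receptor Epha1), and receptors most of those that were lower (Epha3, Unc5c, Nrp2, Plxnd1, Epha7 and Robo4, beside the ligands Ntn1, Efna3 and Slit3). Of 31 tested ligands 6 were called higher and 3 lower, and of 28 tested receptors 1 was called higher and 6 lower, while the difference between these splits was not tested. The median log2 difference of the tested guidance genes was 0.05, and that of all genes tested was 0.01.

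Tips and stalks differed in 9 of 59 guidance genes, where 5.33% of all genes were called, 1.16% higher and 4.17% lower in tips. Slit2, Sema4d and Epha1 were higher in tips, and Plxna2, Epha3, Plxnc1, Epha7, Unc5c and Efna3 were lower. Between stalks and mesenchyme 6 were called, against 3.49% of all genes (2.93% higher and 0.558% lower in stalks). Sema3c, Sema5a, Efnb2, Plxna2 and Plxnc1 were higher in stalks and Ntn1 was lower. With tip and stalk averaged as a mouse bud, 8 were called against mesenchyme, where 5.76% of all genes were (3.58% higher and 2.17% lower). In all, 18 guidance genes were called in a pairwise mouse comparison, and the other 41 tested genes had log2 differences between -0.84 and 0.85. The share of all genes called in any pairwise comparison was not computed, so the 18 of 59 has no background here. These mouse comparisons share arrays and are not independent of each other.

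**Figure D1:**
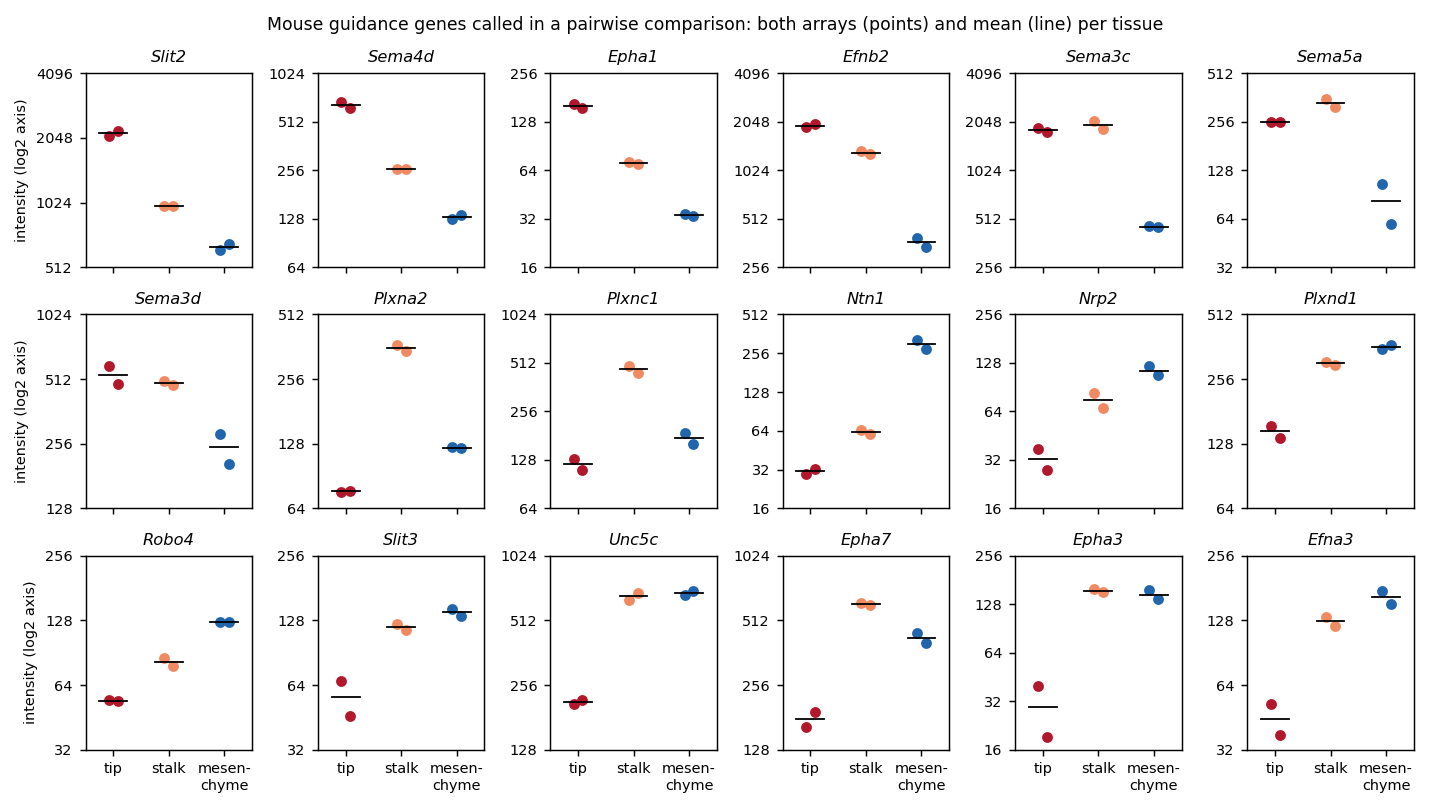
Normalised intensity (log2 axis, scaled for each gene) of the 18 mouse guidance genes called in a pairwise comparison, in tip, stalk and mesenchyme, with each of the 2 arrays as a point and their mean as a line. Slit2, Sema4d and Epha1 are highest in tips, Plxna2 and Plxnc1 in stalks, and Ntn1 in mesenchyme.

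**Figure D2:**
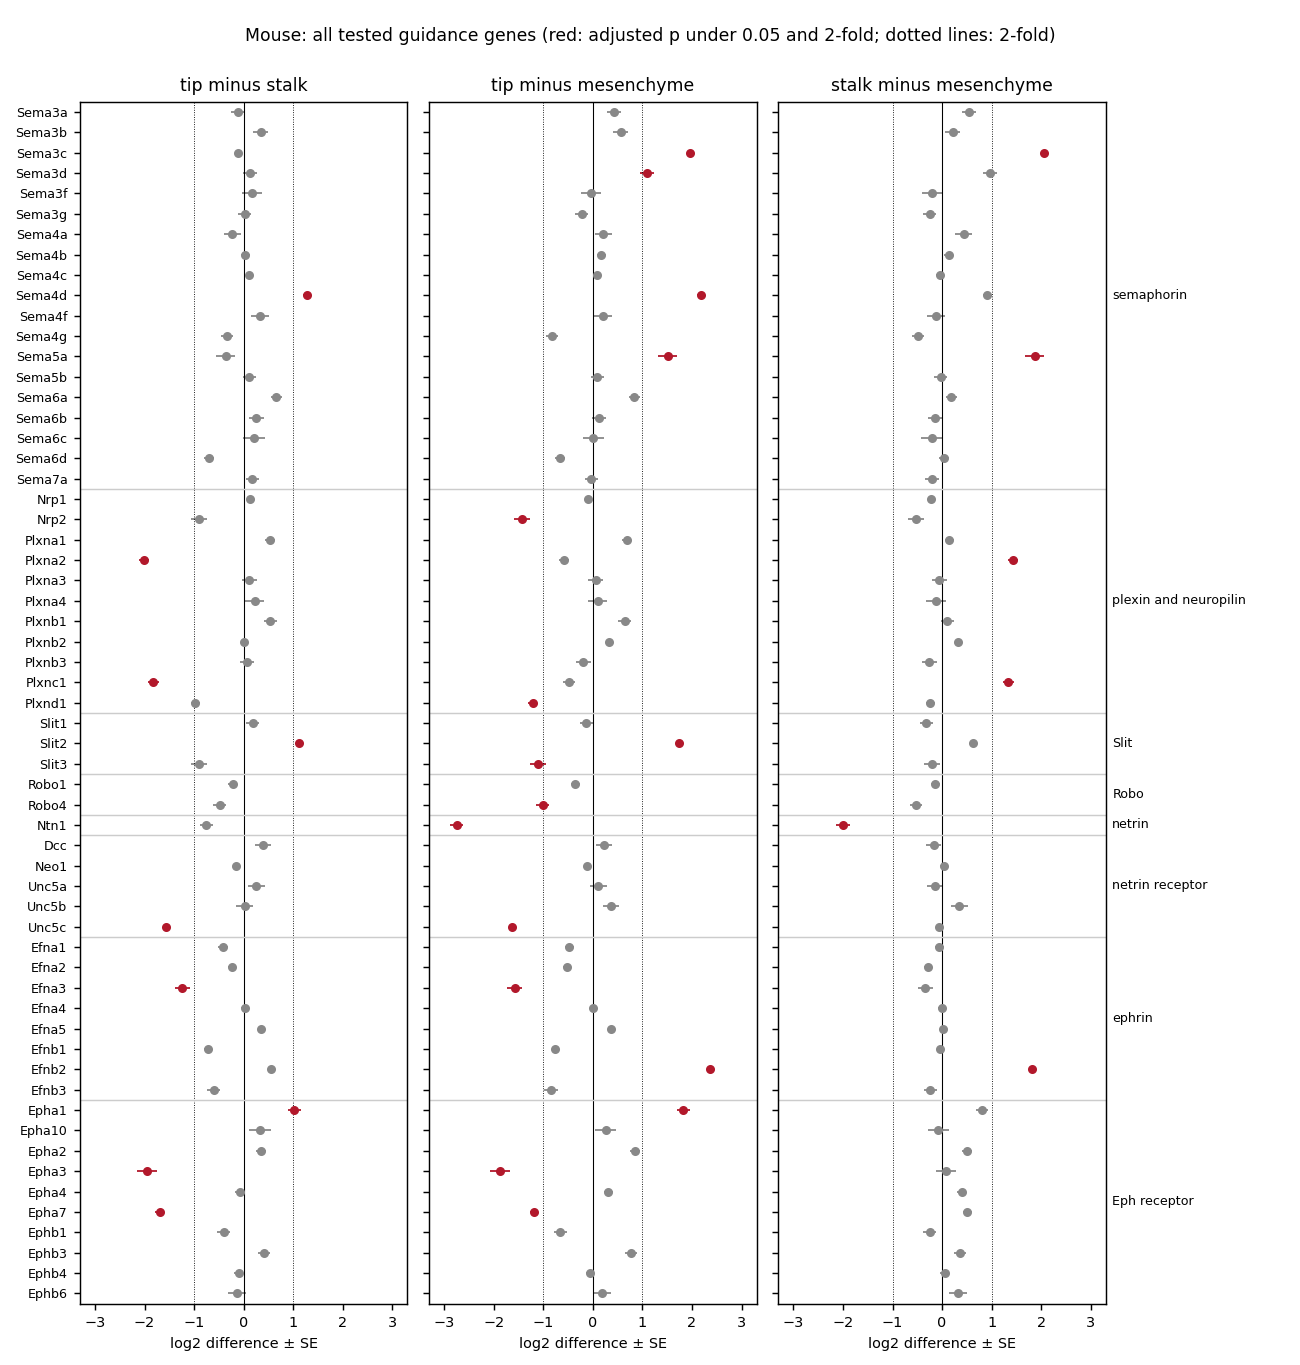
Log2 difference with its standard error of the 59 tested mouse guidance genes in the 3 pairwise comparisons, ordered by family, with called genes in red and 2-fold marked by dotted lines. Red points number 9 for tip minus stalk, 16 for tip minus mesenchyme and 6 for stalk minus mesenchyme.

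Among the Slits, Slit2 read 2096 and 2199 in tips, 988 and 986 in stalks and 615 and 655 in mesenchyme. The groups did not overlap, with tips highest and mesenchyme lowest. The log2 difference was 1.11 (SE 0.05, limma adjusted p = 9.26e-07) from stalk and 1.73 (SE 0.05, adjusted p = 2.7e-08) from mesenchyme, that is 2.16-fold and 3.32-fold. Its other 2 probe sets gave 0.80 and 1.42 for tip minus stalk, the lower of which was not called, and 1.22 and 1.72 for tip minus mesenchyme. Slit3 ran the other way, at 67.2 and 46.0 in tips, 123 and 115 in stalks and 144 and 134 in mesenchyme. It was 1.11 lower in tips than in mesenchyme (log2 difference -1.11, SE 0.16, adjusted p = 0.000651), and without the second tip array the difference was -0.90 and short of 2-fold. Slit1 was between 47.3 and 66.9 on all mouse arrays and was not called.

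Of the receptors of Slits, Robo1 read 335 and 281 in tips, 372 and 349 in stalks and 407 and 390 in mesenchyme. It was lower in tips than in mesenchyme by a log2 difference of -0.36 (SE 0.09, adjusted p = 0.0150), which is under 2-fold and was not called. Robo2, the receptor tied to Slit2 in kidney development, read 11.2 and 12.4 in tips, 19.1 and 15.1 in stalks and 41.3 and 25.4 in mesenchyme, all under the median of the table. With no filter its log2 difference was -0.81 (adjusted p = 0.00218) for tip minus mesenchyme and -0.56 (adjusted p = 0.0425) for stalk minus mesenchyme, and neither was called. Robo4, a Robo of endothelial cells, read 54.2 and 53.7 in tips, 85.5 and 78.5 in stalks and 125 and 126 in mesenchyme. It was called lower in tips than in mesenchyme (log2 difference -1.02, SE 0.12, adjusted p = 0.000254), and with the values as deposited the difference was -0.9998, just under 2-fold. The endothelial markers above were lower in tips in the same way, and their part in the Robo4 difference was not tested.

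Of the 20 semaphorins on the mouse array 19 were tested, and 4 were called higher in tips than in mesenchyme, where 4.65% of all genes were. Sema3c, a secreted class 3 semaphorin, read 1868 and 1766 in tips, 2070 and 1846 in stalks and 460 and 453 in mesenchyme. Tips and stalks did not differ by 2-fold (log2 difference -0.11, adjusted p = 0.24), and both lay above mesenchyme, by 1.96 (SE 0.06, adjusted p = 4.4e-08) and 2.06 (SE 0.06, adjusted p = 1.15e-07). The second Sema3c probe set gave 1.90 and 1.94. Sema3d, another class 3 member, had means of 537 ± 70.8 in tips, 489 ± 15.7 in stalks and 246 ± 55.0 in mesenchyme (SD, n = 2). Its tip minus mesenchyme difference was 1.09 (SE 0.14, adjusted p = 0.000301), and it fell short of 2-fold without the first tip array (0.96) or the second mesenchyme array (0.87), as did the averaged bud difference of 1.03 (0.96 and 0.81).

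Sema4d, a transmembrane ligand of plexin B1, was the only semaphorin called between tips and stalks. By the brightest probe set, Sema6a (tip minus stalk 0.65, limma adjusted p = 0.00244) and Sema6d (-0.70, adjusted p = 0.00116) also differed there, but under 2-fold. Their other probe sets gave 0.22 and 0.28 for Sema6a and -0.05 for Sema6d, with adjusted p of 0.28, 0.17 and 0.80. Dimmer probe sets of Sema3f (0.56 and 0.73) and Sema4f (0.95) differed under 2-fold as well (adjusted p = 0.0060, 8.6e-05 and 0.0014), where the brightest did not. Sema4d read 684 and 625 in tips, 260 and 260 in stalks and 128 and 134 in mesenchyme, so the groups stood in steps with no overlap. The log2 difference was 1.28 (SE 0.08, adjusted p = 7.09e-06) for tip minus stalk and 2.18 (SE 0.08, adjusted p = 1.21e-07) for tip minus mesenchyme. A second, dimmer Sema4d probe set gave 0.80 and 0.95 and was not called. Sema5a, a transmembrane semaphorin with thrombospondin repeats, read 256 and 256 in tips, 353 and 315 in stalks and 106 and 59.3 in mesenchyme. It was higher than in mesenchyme in tips (1.51, SE 0.19, adjusted p = 0.000337) and in stalks (1.87, SE 0.19, adjusted p = 0.000246), and its second probe set was called in both comparisons as well, at 1.28 and 1.43.

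Semaphorin receptors varied in other directions. Plxna2, a receptor of class 6 semaphorins and a partner of neuropilins, read 76.4 and 77.4 in tips, 370 and 345 in stalks and 123 and 123 in mesenchyme. Stalks were highest, by 2.01 over tips (tip minus stalk -2.01, SE 0.10, adjusted p = 2.18e-06) and by 1.43 over mesenchyme (SE 0.10, adjusted p = 2.83e-05). Plxnc1, the plexin that binds Sema7a, read 130 and 111 in tips, 492 and 441 in stalks and 189 and 162 in mesenchyme. Its differences were -1.82 for tip minus stalk (SE 0.12, adjusted p = 7.72e-06) and 1.34 for stalk minus mesenchyme (SE 0.12, adjusted p = 8.26e-05). All 3 further probe sets of each gene had the same signs in both comparisons. The stalk samples also had the highest sum of stroma and ureteric mesenchyme markers, and the part of those cells in the plexin differences was not tested.

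The neuropilins and plexin D1 were not higher in the bud. Nrp1, the co-receptor of Sema3a and of Vegfa, read 1800 and 1833 in tips, 1690 and 1651 in stalks and 2013 and 1900 in mesenchyme, differences of at most 0.23 on the log2 scale in this brightest probe set. Other Nrp1 probe sets gave 0.34, 0.19 and -0.11 for tip minus stalk and -0.06, -0.14 and -0.45 for tip minus mesenchyme, and none was called. Nrp2, the co-receptor of Sema3f, read 37.4 and 27.7 in tips, 83.1 and 66.8 in stalks and 122 and 108 in mesenchyme. It was called lower in tips than in mesenchyme at -1.44 (SE 0.16, adjusted p = 0.000140), while its other 2 probe sets gave -0.39 and -0.09 and were not called. Plxnd1, a plexin of endothelial cells and the receptor of Sema3e, had means of 146 ± 13.3 in tips, 303 ± 8.57 in stalks and 361 ± 10.0 in mesenchyme (SD, n = 2). Its tip minus mesenchyme difference was -1.22 (SE 0.09, adjusted p = 9.50e-06), in the direction of the endothelial markers, whose part was not tested. Sema3e read 22.8 to 27.4 on the mouse arrays and did not pass.

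By the brightest probe set of each gene, netrin-1 gave the largest mouse difference among the guidance genes. Ntn1 read 29.5 and 32.5 in tips, 65.5 and 60.8 in stalks and 327 and 275 in mesenchyme. Mesenchyme lay far above both parts of the bud, at -2.75 for tip minus mesenchyme (SE 0.14, adjusted p = 7.88e-07) and -1.998 for stalk minus mesenchyme (SE 0.14, adjusted p = 1.87e-05). These are 6.73-fold and 3.99-fold on the log2(intensity + 16) scale, and no second probe set was tested. Over the 6 mouse arrays the genes most like Ntn1 by Pearson correlation were Cask, Cblb, Pabpc4, Ccl27a and Stmn2 (r between 0.997 and 0.999 among 12368 genes, a description over 3 pooled RNAs). Stmn2, from the neuronal marker list, read 34.3 and 42.4 in tips and 243 and 214 in mesenchyme, and the nephron progenitor markers above were also highest in mesenchyme. The part of neuronal cells and of nephron progenitors in the Ntn1 difference was not tested.

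Of the netrin receptors only Unc5c was called. Unc5c, a receptor of the repulsive response to netrin, read 208 and 217 in tips, 634 and 689 in stalks and 674 and 705 in mesenchyme. Tips stood apart, at -1.57 from stalks (SE 0.07, adjusted p = 7.12e-07) and -1.62 from mesenchyme (SE 0.07, adjusted p = 2.51e-07), while stalks and mesenchyme differed by -0.06 (adjusted p = 0.65). The second Unc5c probe set gave -1.72 and -1.78. Dcc, neogenin (Neo1), Unc5a and Unc5b had log2 differences between -0.17 and 0.39 in the pairwise comparisons, and none was called.

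Among the 8 ephrins, all tested, Efnb2 rose and Efna3 fell in the tip relative to mesenchyme. Efnb2, a transmembrane ephrin known from arteries, read 1905 and 1970 in tips, 1347 and 1285 in stalks and 388 and 341 in mesenchyme. It was 5.14-fold higher in tips (log2 difference 2.36, SE 0.06, adjusted p = 1.9e-08) and 3.50-fold higher in stalks (1.81, SE 0.06, adjusted p = 3.45e-07) than in mesenchyme. All 3 other probe sets were called in both comparisons, between 1.45 and 2.37 and between 1.03 and 1.80. The 5 genes most like it over the 6 arrays were Kdf1, Emx2, Kcnk1, Ap1s3 and Carmil1, at a Pearson r between 0.999 and 1.000, of which Emx2 is on the bud epithelium marker list. Efna3, a lipid-anchored ephrin, read 52.0 and 37.4 in tips, 132 and 121 in stalks and 175 and 153 in mesenchyme. Its differences were -1.24 from stalks (SE 0.15, adjusted p = 0.000415) and -1.58 from mesenchyme (SE 0.15, adjusted p = 5.87e-05), and its other probe set gave -0.41 and -0.64 and was not called.

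The Eph receptors split between tips and the other tissues. Epha1, an Eph receptor of epithelia, read 166 and 155 in tips, 71.5 and 70.4 in stalks and 34.5 and 33.2 in mesenchyme. Tips were highest, by 1.02 over stalks (SE 0.13, adjusted p = 0.000403) and 1.82 over mesenchyme (SE 0.13, adjusted p = 6.12e-06). The difference from stalks was 0.98 without the first tip array, 0.97 with the values as deposited and 0.24 in the other probe set, each short of 2-fold. That probe set gave 0.62 for tip minus mesenchyme and was not called there either. Epha3 read 39.8 and 19.2 in tips, 158 and 152 in stalks and 157 and 137 in mesenchyme. It was lower in tips than in stalks (-1.95, SE 0.21, adjusted p = 0.000165) and than in mesenchyme (-1.87, SE 0.21, adjusted p = 0.000126). Another Epha3 probe set was called as well (-1.96 and -1.51), and the third gave -0.66 and -0.65 and was not called.

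Epha7 read 164 and 192 in tips, 617 and 604 in stalks and 447 and 403 in mesenchyme. Tips were lowest, at -1.70 from stalks (SE 0.09, adjusted p = 2.34e-06) and -1.19 from mesenchyme (SE 0.09, adjusted p = 1.07e-05), and all 3 other Epha7 probe sets were called lower in tips in both comparisons, from -2.98 to -2.02 and from -2.35 to -1.31. The stroma markers were lower in tips along with Epha3, Epha7, Unc5c and Efna3, and their part in these differences was not tested. The EphB receptors stayed within 2-fold: Ephb1, Ephb3, Ephb4 and Ephb6 had pairwise log2 differences between -0.66 and 0.77.

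Ligands were then set beside their receptors by the tissue in which each was called higher in mouse, over 89 ligand and receptor pairs from general knowledge, each gene by its brightest probe set. Of the class 3 semaphorins only Sema3e was paired with a plexin and the others with neuropilins, so Sema3c was not set beside Plxna2, and Robo4 was in no pair. Both sides were tested in 64 pairs, and both were called in 5. In 3 of these the ligand and the receptor shared a tissue: Ntn1 with Unc5c (mesenchyme), and Efna3 with Epha3 and with Epha7 (stalk and mesenchyme). In the other 2 they did not: Sema3c was higher in tip and stalk and Nrp2 in mesenchyme, and Efna3 was higher in stalk and mesenchyme and Epha1 in tip. Of these genes, Efna3, Nrp2 and Epha1 were called in their brightest probe set only, so the pairs that hold them depend on that choice. By these probe sets no pair had both sides called higher in tips or in the averaged bud than in mesenchyme, though a dimmer Plxnb1 probe set, opposite Sema4d, was called higher in tips (1.09, adjusted p = 0.000134).

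In 18 pairs only the ligand was called. Slit2 and Slit3 faced Robo1, which was not called, and Ntn1 faced Dcc, Neo1, Unc5a and Unc5b. Sema3c and Sema3d faced Nrp1, and Sema4d faced Plxnb1 (tip minus mesenchyme 0.64, adjusted p = 0.00512) and Plxnb2 (0.32, adjusted p = 0.00116). Sema5a faced Plxna1 (0.68, adjusted p = 0.000614) and Plxnb3 (-0.19, adjusted p = 0.386). Efnb2 faced Ephb3 (0.77, adjusted p = 0.000799), Epha4 (0.31, adjusted p = 0.0233), Ephb4 (-0.06, adjusted p = 0.690) and Ephb1 (-0.66, adjusted p = 0.00455), and Efna3 faced Epha2 and Epha4. In its brightest probe set, none of these uncalled receptors differed by 2-fold in a pairwise mouse comparison.

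In 17 pairs only the receptor was called. Plxna2, high in stalks, faced Sema6a, which read 186 and 189 in tips, 117 and 110 in stalks and 98.2 and 97.8 in mesenchyme. In this probe set Sema6a was thus brightest where Plxna2 was dimmest, by 0.65 over stalks (adjusted p = 0.00244) and 0.84 over mesenchyme (adjusted p = 0.000406), each under 2-fold. The other Sema6a probe sets gave only 0.22 and 0.28 for tip minus stalk (limma adjusted p = 0.28 and 0.17). Plxnc1 faced Sema7a, which read 48.6 to 63.7 on all arrays. Nrp2 faced Sema3b, Sema3f and Sema3g, and Epha1, Epha3 and Epha7 each faced Efna1, Efna2, Efna4 and Efna5. In 24 pairs neither side was called, and in 25 a side was not on the mouse array or did not pass. The choice of probe set mattered for some of these genes: other probe sets of Plxnb1 (1.09), Sema3b (1.12) and Sema4f (1.36) were called higher, and others of Efnb1 (-1.16) and Plxna2 (-1.16) lower, in tips than in mesenchyme, where the brightest probe set of the gene was not. Conversely, no other probe set of Efna3, Nrp2, Epha1, Sema3d or Sema4d was called where the brightest one was.

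**Figure D3:**
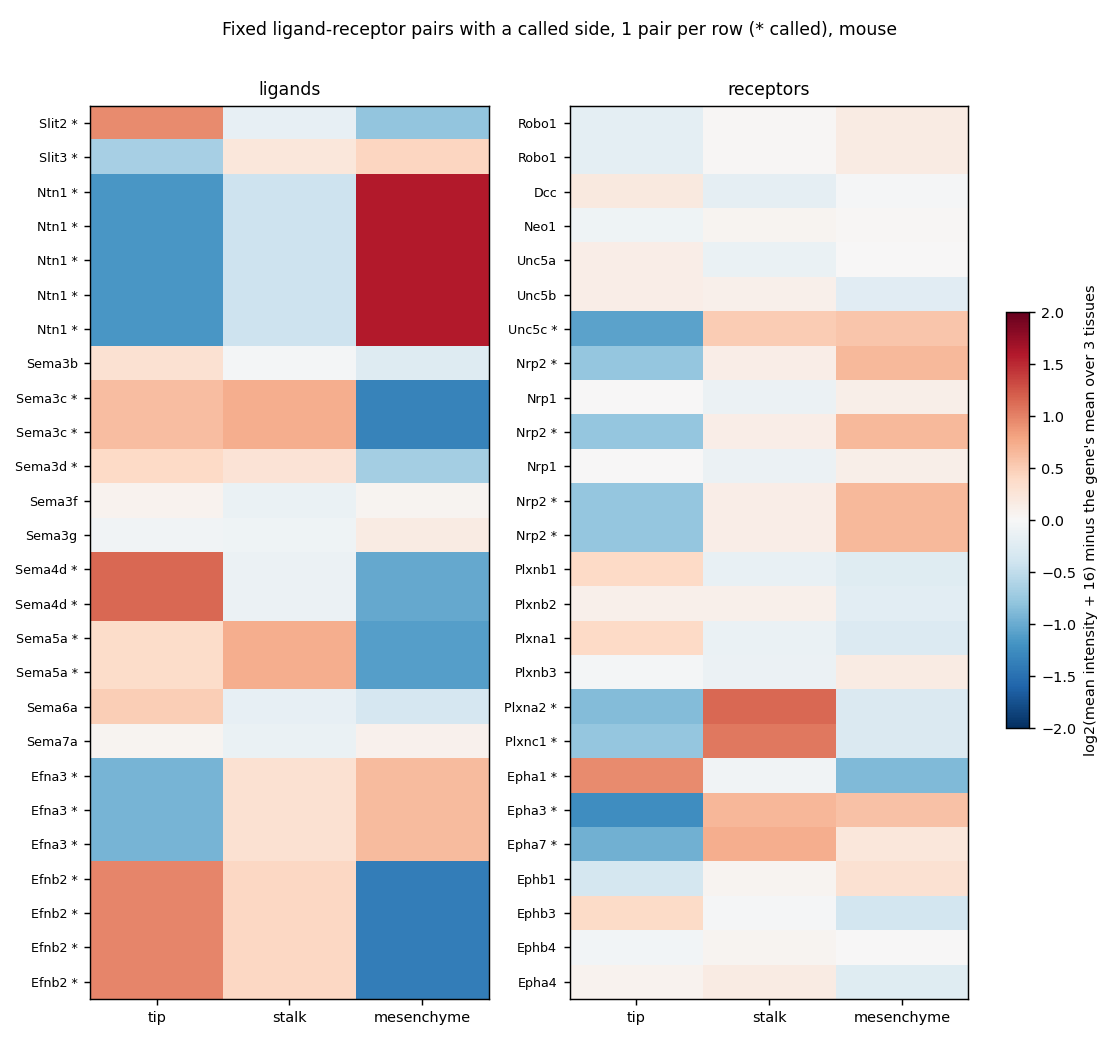
Mean log2(intensity + 16) of ligands (left) and receptors (right) in mouse tip, stalk and mesenchyme, each relative to the gene's own mean over the 3 tissues, with 1 pair per row and called genes starred. Pairs of ephrin-A ligands and EphA receptors are drawn only where both sides were called. Efnb2 and Slit2 are red in tips while their receptors are pale, Sema3c is red in the bud opposite a pale Nrp1 and a starred Nrp2 that is blue in tips, and Ntn1 and Unc5c are both red in mesenchyme.

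Proteins that act inside the cell downstream of these receptors were taken as a list of 49 genes, 46 on the mouse array and 43 tested. Called lower in tips than in mesenchyme were Dpysl4, Crmp1, Dpysl3 and Mical1, and higher Vav3 and Ablim1, 14.0% of the 43 beside 9.7% of all genes. The first 3 belong to the collapsin response mediators, which relay semaphorin signals to the cytoskeleton. Dpysl4 had means of 70.2 ± 10.4 in tips, 481 ± 19.6 in stalks and 340 ± 19.3 in mesenchyme (SD, n = 2), and Crmp1 had 65.1 ± 2.04, 146 ± 1.13 and 282 ± 2.26. Vav3, a signalling protein that acts downstream of Eph receptors, had 442 ± 18.6 in tips, 188 ± 7.74 in stalks and 34.0 ± 1.33 in mesenchyme. Its tip minus mesenchyme difference was 3.20 (SE 0.11). Between tips and stalks 1 of the 43 was called higher (Vav3) and 4 lower (Dpysl4, Dpysl3, Mical1 and Chn2), and between stalks and mesenchyme 2 higher (Vav3 and Srgap3, a GTPase-activating protein bound by Robos). These are 11.6% and 4.65% of the 43, beside 5.33% and 3.49% of all genes. The collapsin response mediators are also known from neurons, whose markers were lower in tips, and their part was not tested.

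Other cues and co-receptors, a list of 19 genes with 18 tested, gave 3 called higher and 4 lower in tips than in mesenchyme, where 4.65% of all genes were called higher and 5.05% lower. L1cam, an adhesion molecule that associates with neuropilins, had means of 545 ± 19.0 in tips, 310 ± 7.71 in stalks and 90.3 ± 1.79 in mesenchyme, and Nrcam had 191 ± 18.8, 65.9 ± 4.90 and 33.8 ± 0.460 (SD, n = 2). Met, the receptor of hepatocyte growth factor, which can pair with class B plexins, had 618 ± 61.2, 222 ± 7.61 and 184 ± 22.2. The chemokine Cxcl12 had 308 ± 17.9, 1827 ± 72.6 and 2344 ± 184, and its receptor Cxcr4 had 505 ± 62.8, 130 ± 13.9 and 250 ± 4.53. Flrt3, an Unc5 ligand, had 96.1 ± 24.0, 474 ± 34.1 and 447 ± 0.424. So Flrt3 and Unc5c were both lower in tips than in either other tissue. Cntn1 and Kdr were also lower in tips than in mesenchyme, and between tips and stalks 3 of the 18 were called higher in tips (Cxcr4, Met and Nrcam) and 3 lower (Cxcl12, Cntn1 and Flrt3), beside 1.16% and 4.17% of all genes.

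In rat, 1 guidance gene was called, Efnb1, a transmembrane ephrin whose promoter is shown above. On the first design it read 94.2 and 83.3 in buds and 268 and 339 in mesenchyme. On design B it read 211 and 347 in buds and 795 and 746 in mesenchyme. The groups did not overlap on either design, with mesenchyme higher by a factor of 3.04 (bud minus mesenchyme -1.60, SE 0.16, adjusted p = 0.00138) and of 2.74 (-1.45, SE 0.22, adjusted p = 0.00875). Without the second bud labeling the differences were -1.53 and -1.79. That leaves 1 bud array, which is assumed to vary like the mesenchyme arrays, so no call is read from it. The 6 stroma and ureteric mesenchyme markers on the first design summed to 1147 to 1230 in buds and 4700 to 5228 in mesenchyme, and their part in the Efnb1 difference was not tested. It was the only gene called of 9 tested on the first design, where 5.81% of all genes were called (3.22% higher and 2.59% lower in buds), and of 10 tested on design B, where 5.42% were (3.2% higher and 2.22% lower). In mouse, the brightest Efnb1 probe set read 238 and 252 in tips, 428 and 403 in stalks and 415 and 437 in mesenchyme, so the mouse signal was lower in tips only, by -0.76 from mesenchyme (SE 0.07, adjusted p = 5.31e-05), under 2-fold.

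On design C none of 12 tested guidance genes was called with limma, where 3.99% of all genes were (2.22% higher and 1.77% lower in buds). The limma p was under 0.05 for 7 of the 12 before adjustment and for 4 after it. Of all 3155 genes tested there, it was so for 925 before adjustment and for 338 after it. Slit2 read 627 and 700 in buds and 331 and 368 in mesenchyme (log2 difference 0.90, SE 0.12, adjusted p = 0.0122). Unc5c read 149 and 159 in buds and 336 and 305 in mesenchyme (-0.98, SE 0.10, adjusted p = 0.00581). Plxnd1 read 415 and 387 in buds and 689 and 666 in mesenchyme (-0.73, SE 0.11, adjusted p = 0.0162). The differences of these 3 genes stayed under 2-fold. Without the second bud labeling Unc5c and Sema3c passed 2-fold (-1.03 and 1.11), and without the first Plxnb2 did (-1.09), in fits where the lone bud array is assumed to vary like the mesenchyme arrays.

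Sema3c on design C read 140 and 106 in buds and 60.7 and 52.1 in mesenchyme (0.93, SE 0.17, adjusted p = 0.0288), and it passed the filter only through the bud. Sema5a read 266 and 286 in buds and 162 and 141 in mesenchyme on design B (0.80, SE 0.11, adjusted p = 0.00638), and 216 and 193 against 134 and 157 on design C (0.45, SE 0.12, adjusted p = 0.0809). Ntn1 on design C read 131 and 112 in buds and 193 and 165 in mesenchyme (-0.51, adjusted p = 0.0710). Without the second bud labeling the values were 1.11 for Sema3c, 0.75 and 0.53 for Sema5a, 0.82 for Slit2, -0.69 for Plxnd1 and -0.41 for Ntn1.

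Genes tested both in mouse and on a rat design gave 27 comparisons of 23 genes, with some genes counted again on a further design. In 19 the bud minus mesenchyme difference had the same sign in both species, and none was called in both. Shares of all genes with the same sign or called in both were not computed, so these counts have no background. Sema3c, Slit2, Ntn1 and Sema5a (on both its rat designs) were called in mouse only, and Efnb1 (on both its designs) in rat only. Side by side, the log2 differences in mouse and rat were 1.18 and 0.90 for Slit2, 2.01 and 0.93 for Sema3c, -2.37 and -0.51 for Ntn1, -0.84 and -0.98 for Unc5c, -0.73 and -0.73 for Plxnd1, and -0.40 against -1.60 and -1.45 for Efnb1. Efna1 had opposite signs, at -0.26 in mouse and 0.76 in rat (222 and 252 in buds, 124 and 142 in mesenchyme, adjusted p = 0.0174). The stages, dissections, array designs and probe sequences differ between the species, and the size of the difference between them was not tested.

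**Figure D4:**
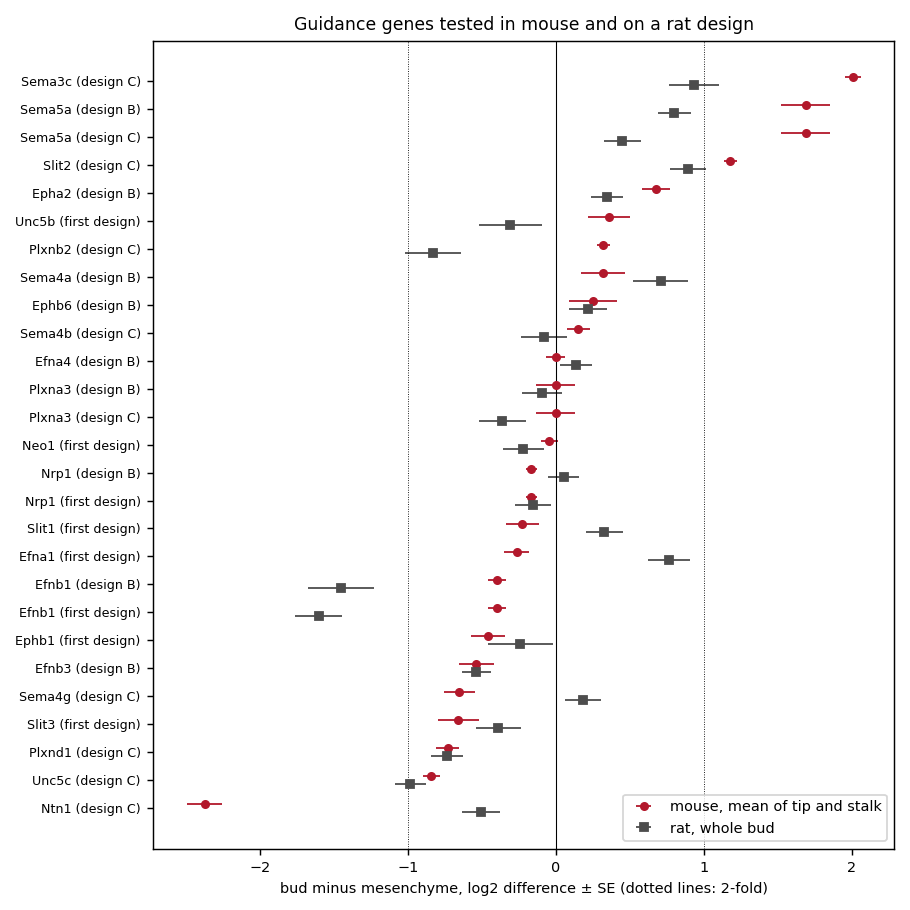
Bud minus mesenchyme log2 difference with its standard error for the 27 comparisons in which a guidance gene was tested in mouse (red circles, mean of tip and stalk) and on a rat design (grey squares, whole bud), in order of the mouse value. Sema3c, Sema5a and Slit2 lie to the right and Ntn1, Unc5c and Plxnd1 to the left in both species, and Efnb1 passes 2-fold in rat only.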

How the data were processed

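Gene expression was measured on 18 Affymetrix arrays of mouse and rat embryonic kidney tissue, grouped by their labels. The authors deposited 1 linear intensity per probe set and array in 4 tables, whose scaling and summary method is not given in the sources used here. Per the labels, 1 ug of total RNA was used, with 2 labelings for each tissue.

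Each table was quantile normalised and tested on log2(intensity + 16) with limma 3.58.1 in R 4.3.3 (lmFit, eBayes with an intensity trend), after removal of 64 mouse and 59 rat control probe sets and of probe sets below the table's median in every tissue. This tested 23971 mouse and 4626, 4666 and 4660 rat probe sets, over which p-values were adjusted. Genes were named from the platform annotation, where a probe set had a single symbol, and represented by their brightest probe set. The fits were also run on simulated data with independent noise on each array. That setting leaves out the shared deviation of same-numbered arrays given below. The number of arrays limits the precision.

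The genes, the pairs, the effector, cue and marker lists and the tests were chosen with earlier results of these data known. Every called guidance gene was named, as were both sides of a pair with a called side, called genes of the effector and cue lists, and the 5 genes most like Ntn1 and Efnb2. Values of each array were given for up to 3 called genes per family, and further ones to show a pair or a result below threshold. Alternatives changed the scaling, pseudocount, filter, probe set rule, variance trend, test and arrays.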

Additional observations from a re-analysis of the deposited data

Results flagged for a closer look

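For 3 genes the bud minus mesenchyme difference ran in opposite directions in the 2 species, with all bud arrays of a species on the same side of all its mesenchyme arrays, and the difference between species was not tested. They are 3 of 27 comparisons, where 7.81% of the 7655 comparisons of all genes tested in both species were opposite in this way, and the rat adjusted p was 0.15 for Slit1, 0.054 for Plxnb2 and 0.37 for Sema4g. Slit1 had log2 differences of -0.23 in mouse and 0.33 in rat (first design), from 47.3 to 59.2 in the mouse bud against 66.0 and 66.9 in mesenchyme, and from 296 and 280 in the rat bud against 227 and 225. Plxnb2 had 0.32 in mouse and -0.83 in rat (design C), where it read 479 and 330 in buds and 714 and 725 in mesenchyme. Sema4g had -0.65 in mouse and 0.19 in rat (design C). None of these differences reached 2-fold with all arrays. Without the second rat bud labeling the rat values were 0.37 for Slit1, -0.57 for Plxnb2 and 0.11 for Sema4g.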

How the results depend on the processing

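Over 9 other settings the number of guidance genes called ranged from 7 to 13 for tip minus stalk (9 as reported), 12 to 16 for tip minus mesenchyme (16), 6 to 8 for stalk minus mesenchyme (6) and 6 to 11 for averaged bud minus mesenchyme (8). Leaving out 1 mouse array at a time gave 9 to 11, 15 to 16, 6 to 7 and 8 to 10. In rat, the 1 call on the first design held in every setting, the 1 call on design B became 0 when tested against a 1.5-fold difference (Efnb1, adjusted p = 0.0929), and design C, with 0 calls, gave 2 with a pseudocount of 1 (Sema3c and Unc5c). Leaving out 1 array gave 1 call each time on the first design and design B, and 0 to 2 on design C, with 1 without the first bud labeling and 2 without the second, in fits where the lone array is assumed to vary like the other group. Recomputed under each alternative, values of single called genes kept their direction and call in 586 cases and lost the call in 25, and none reversed. Of these 25, 8 came with a pseudocount of 64 and 5 with the mean of all probe sets of a gene. Arrays with the same labeling number deviated together (r from 0.42 to 0.57 in mouse and 0.22 to 0.31 in rat), but with 2 numbers the pairing was not established. With the labeling number as a replicate block the counts were 9, 16, 6 and 8 in mouse and 1, 1 and 0 in rat, and no call of a named gene changed.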
